A study of Mus musculus with 2 samples.

Results

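The lysosome genes described here are 31 genes chosen by name out of the 32285 genes in the count tables of mouse liver cells. They encode the main soluble enzymes of the lysosome, proteins of its membrane, subunits of its proton pump and a transcription factor that controls many of them. They were picked by name and not by a measured value, but with earlier results of these data known. Each symbol matched 1 row of the gene list. Both libraries were read at the same cell filter, which kept barcodes with at least 500 unique molecular identifiers (UMIs, each standing for 1 captured RNA molecule), at least 200 genes and at most 20% of UMIs from mitochondrial genes.

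The study compared liver cells of tumour-bearing Glul fl/fl mice, in which both alleles of the glutamine synthetase gene can be removed by Cre recombinase. AAV8-GFP was given to the GFP control mouse and AAV8-Cre to the GS-KO mouse, and both were used 7 weeks after infection. AAV8 is a vector that infects mainly hepatocytes; the promoter in front of Cre and the ages of the mice were not given in the sources used here, and the series title places the tumours in β-catenin-mutant hepatocellular carcinoma. Cells came from perfused livers, were enriched with anti-F4/80 beads (F4/80 is a surface protein of macrophages, encoded by Adgre1) and passed through a dead cell removal step. Each group was 1 mouse and 1 library, so no difference between the groups has a replicate check, no p-value is given, and the 95% intervals below cover counting error only.

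Lysosomes are acidic compartments in which proteases, glycosidases and lipases break down material taken up from outside or delivered by autophagy. A proton pump acidifies the lumen, heavily glycosylated membrane proteins line it, and the transcription factor TFEB switches on many of the genes together through a promoter motif built on CACGTG. In the liver, Kupffer cells and other macrophages clear particles, dying cells and lipoproteins through this compartment.

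The CACGTG motif was looked for in the 250 bases upstream of each RefSeq gene start (GRCm38.p6), for which 27 of the 31 members had an entry. CACGTG reads the same on both strands; it was in 8 of the 27 member windows (29.6%), against 6.86% of the 27025 genes in the table. Its longer form TCACGTGA, which contains it and also reads the same on both strands, was in 5 of 27 windows (18.5%), against 0.907% of all genes. The 5 members were Atp6v1a, Ctsa, Ctsd, Gla and Mcoln1, and Ctsl, Lamp1 and Lgmn held only the shorter form. The stretches below show these letters, in capitals, in a proton pump subunit (chr16:44139306-44139461, minus strand), a membrane protein (chr8:13158911-13159160, plus strand) and, cut to the motif and its flanks where it lies over an annotated exon, in Ctsd (chr7:142387908-142387937, minus strand), Ctsa (chr2:164833749-164833772, plus strand), Gla (chrX:134601215-134601244, minus strand) and Mcoln1 (chr8:3500462-3500491, plus strand). They are shown so that the levels of these members can be read beside the motif they carry. A match is a run of letters, not a bound site. By the gene bounds of GENCODE M21, the windows of Atp6v1a, Ctsa, Ctsl and Lgmn lay wholly within the gene. Those of Ctsd, Gla and Mcoln1 lay partly within it.
Atp6v1a: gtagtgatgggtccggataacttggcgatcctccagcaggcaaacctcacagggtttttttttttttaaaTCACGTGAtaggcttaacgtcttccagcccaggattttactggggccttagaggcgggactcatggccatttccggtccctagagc
Lamp1: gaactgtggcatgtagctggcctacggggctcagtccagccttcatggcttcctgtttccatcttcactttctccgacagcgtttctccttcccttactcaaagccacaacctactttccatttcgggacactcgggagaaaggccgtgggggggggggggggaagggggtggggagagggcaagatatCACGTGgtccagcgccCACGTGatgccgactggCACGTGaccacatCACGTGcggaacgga
Ctsd: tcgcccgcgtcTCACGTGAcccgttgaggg
Ctsa: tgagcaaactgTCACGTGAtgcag
Gla: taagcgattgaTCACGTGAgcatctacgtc
Mcoln1: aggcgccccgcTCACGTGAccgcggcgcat

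The control library kept 3266 cells (median 7330 UMIs) and the GS-KO library 656 cells (median 4104.5 UMIs). Cells were clustered without the 31 members and without 89 further lysosome genes, so that a level across clusters was not set by the clustering, and 14 of 19 clusters could be named from marker lists; the names below stand for cells like that type. By control and GS-KO library, the macrophages numbered 1108 and 70, the monocytes 108 and 50, the neutrophils 99 and 103, the endothelial cells 114 and 88, the B cells 488 and 125, the T cells 191 and 68, the NK cells 150 and 34, and the hepatocytes 429 and 15, so macrophages were a minority of the kept cells in both libraries despite the bead enrichment. Glul itself stood at 3022 CPM (UMIs of a gene scaled to a total of 1e6 in the class) in control hepatocytes and 21.6 CPM in GS-KO hepatocytes, and at 256 and 247 CPM in macrophages. A single barcode sequence occurred in both libraries, and 0 of the kept cells shared one.

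The lysosome genes had their highest summed level in the macrophages. The 31 members together made up 3.68% of all UMIs in control macrophages and 3.33% in GS-KO macrophages, which is 36771 CPM (36688 to 36853) and 33338 CPM (32995 to 33684). Monocytes followed with 15323 CPM in the control library and 13162 CPM in the GS-KO library. Endothelial cells held 8640 and 10208 CPM, and neutrophils 7276 and 5589 CPM. The lymphocytes and the hepatocytes held the least, from 2333 CPM in T cells to 4199 CPM in hepatocytes of the control library, and from 1966 to 4034 CPM in the same 2 classes of the GS-KO library. The order macrophage, monocyte, then endothelial cells and neutrophils, then hepatocytes, B, NK and T cells was the same in both libraries; the intervals of NK and T cells overlapped in each (2364 to 2535 and 2240 to 2430 CPM in the control library).

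**Figure D1:**
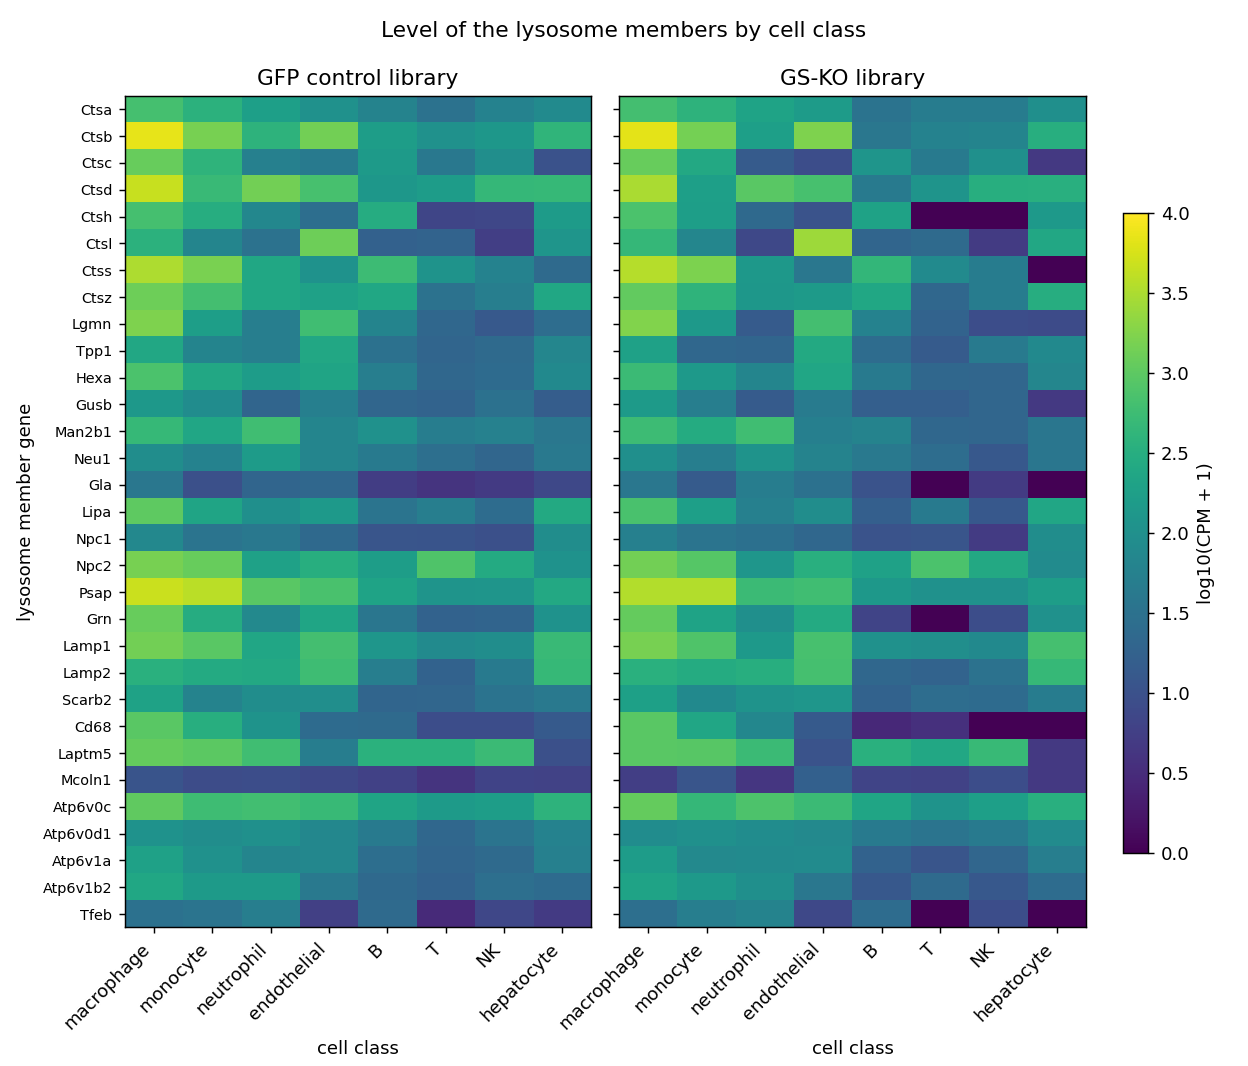
Level of each of the 31 members, as log10(CPM + 1) of the pooled UMIs, in 8 cell classes (columns) of the GFP control library (left) and the GS-KO library (right). The macrophage column is the brightest for most genes in both libraries, with Ctsl in endothelial cells as a visible exception.

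A member counted as higher in macrophages when its CPM was at least 2-fold that of the other class, among genes with at least 20 UMIs over both. By that measure 30 of 31 members were higher in control macrophages than in B cells, where 28.9% of all genes were. The same count was 30 of 31 against T cells (38% of all genes), 30 of 31 against NK cells (28.9%) and 27 of 31 against hepatocytes (36.7%). Against monocytes, the closest class, it was 17 of 31 (20.3% of all genes) and against endothelial cells 24 of 31 (18.3%), with Ctsl the 1 member at least 2-fold lower in macrophages (25.4% of all genes). Against neutrophils it was 20 of 31 members, in a comparison where 52.4% of all genes were higher in macrophages. Against the classes other than endothelial cells 0 members were at least 2-fold lower in control macrophages, where 12.6% of all genes were lower against monocytes, 17.1% against neutrophils, 16.3% against B cells, 12.3% against T cells, 17.7% against NK cells and 23.8% against hepatocytes. In the GS-KO library the counts were 18 of 30 against monocytes (17.5% of all genes), 22 of 30 against endothelial cells (14.2%), 20 of 30 against neutrophils (47.7%), 28 of 30 against B cells (31.7%), 29 of 30 against T cells (38.2%), 28 of 30 against NK cells (30.6%) and 26 of 30 against hepatocytes (39.1%).

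The 4 largest macrophage over neutrophil ratios of the control library belonged to 3 proteases and progranulin. Legumain (Lgmn), an asparagine-specific endopeptidase that also activates cathepsins, stood at 1676 CPM in control macrophages and 50.6 CPM in control neutrophils, a 33.1-fold difference (19.4 to 62.2). Cathepsin C (Ctsc), which activates the serine proteases of immune cell granules, differed 21.7-fold (13 to 39.8) at 1185 and 54.5 CPM. Cathepsin B (Ctsb), an abundant cysteine protease, differed 18.5-fold (15.2 to 22.8) at 7211 and 389 CPM. Progranulin (Grn), a lysosomal protein of the lipid-handling group, differed 15.8-fold (10.1 to 26.2) at 1167 and 74.0 CPM. Ctsb, Ctsc and Lgmn were also among the 4 largest in the GS-KO library, at 38.0-fold (29.2 to 50.3), 92.2-fold (35.9 to 339) and 136-fold (53.0 to 500).

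At the other end of that order stood 4 members whose level in neutrophils matched or passed that in macrophages. Sialidase 1 (Neu1), which removes terminal sialic acids, was 1.73-fold higher in control neutrophils (1.23 to 2.37) at 156 against 90.0 CPM. Tfeb, the regulator of the list, stood at 50.6 CPM in neutrophils and 30.1 CPM in macrophages, and its interval held 1 (0.891 to 2.90). Lysosomal alpha-mannosidase (Man2b1), which trims mannose from glycoproteins, was 1.27-fold higher in control neutrophils (1.08 to 1.49) at 600 against 471 CPM. Atp6v0d1, a subunit of the membrane part of the proton pump, stood at 101 and 108 CPM, a ratio of macrophages over neutrophils of 1.07 (0.725 to 1.63). The GS-KO library gave neutrophil levels of 113 CPM for Neu1, 61.2 CPM for Tfeb, 596 CPM for Man2b1 and 86.9 CPM for Atp6v0d1. Of these, only Tfeb had an interval of the macrophage over neutrophil ratio away from 1 in that library (0.453, 0.247 to 0.851). With each cell thinned to 1000 UMIs, Man2b1 had a UMI in 44.3% of 97 control neutrophils (exact binomial interval 34.2 to 54.8). Among 1105 control macrophages the share was 36.5% (33.6 to 39.4), and these intervals overlap. In the GS-KO library it was 42.7% of 103 neutrophils (33.0 to 52.8) and 50.8% of 65 macrophages (38.1 to 63.4). Control B cells stood at 10.9% of 467 (8.24 to 14.1).

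Endothelial cells stood out for cathepsin L (Ctsl), a cysteine protease. Its level there was 1310 CPM in the control library and 2600 CPM in the GS-KO library, against 374 and 465 CPM in macrophages, which is 350% and 559% of the macrophage level. No other class reached the macrophage level of Ctsl: hepatocytes stood at 120 and 248 CPM, monocytes at 66.1 and 68.0 CPM, neutrophils at 31.2 and 6.44 CPM, T cells at 17.9 and 23.2 CPM, B cells at 16.7 and 19.1 CPM and NK cells at 4.60 and 3.94 CPM. Lamp2, a membrane protein needed for autophagy, was also higher in endothelial cells, at 566 and 658 CPM against 340 and 343 CPM. Tpp1, a tripeptidyl peptidase, stood at 250 and 272 CPM in endothelial cells and 249 and 191 CPM in macrophages. Cd68, a glycoprotein widely used to mark macrophages, was at 24.0 and 12.6 CPM there, against 946 and 946 CPM.

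In monocytes the members spread widely relative to macrophages, from 10.2% of the macrophage level for Lgmn to 113% for Tfeb in the control library. Prosaposin (Psap), the precursor of the saposins that help degrade sphingolipids, stood at 3836 CPM in control monocytes and 3448 CPM in GS-KO monocytes, against 4771 and 3513 CPM in macrophages. Laptm5, a lysosomal membrane protein of blood cells, stood at 969 and 910 CPM, against 1125 and 931 CPM. Npc2, the soluble protein that passes cholesterol to Npc1, stood at 1191 and 871 CPM, against 1493 and 1391 CPM. Tfeb was at 34.1 and 49.7 CPM in monocytes, and at 30.1 and 27.7 CPM in macrophages. Within the same role groups other members were far lower in monocytes: Lipa, an acid lipase, stood at 21.3% and 25.4% of its macrophage level, Grn at 25.2% and 18.1%, and Cd68 at 34.2% and 24.9%. Of the proteases, Lgmn stood at 171 and 141 CPM and Ctsb at 1497 and 1462 CPM, against 1676 and 1751 CPM and 7211 and 6849 CPM in macrophages.

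In lymphocytes the members were mostly far below the macrophage level, with a few exceptions. B cells held Tfeb at 23.2 and 24.8 CPM, 77.1% and 89.7% of the macrophage level. Ctsh, an aminopeptidase, stood at 293 and 203 CPM there (45.1% and 27.7%), Laptm5 at 355 and 344 CPM (31.6% and 36.9%), and Ctss, a cysteine protease that trims the invariant chain of MHC class II, at 560 and 451 CPM (17.6% and 12.7%). In T cells Npc2 stood at 795 and 735 CPM, 53.3% and 52.8% of the macrophage level. NK cells held Laptm5 at 533 and 504 CPM (47.4% and 54.1%) and cathepsin D (Ctsd), an aspartic protease, at 456 and 327 CPM (9.93% and 10.5%). Hepatocytes exceeded macrophages for Lamp2, at 481 and 482 CPM against 340 and 343 CPM, and for Npc1, the membrane protein that exports cholesterol, at 89.4 and 90.0 CPM against 72.5 and 53.5 CPM. In GS-KO T cells 4 members, in GS-KO NK cells 2 and in the 15 GS-KO hepatocytes 4 had no UMI, which allows levels of up to 7.73, 11.8 and 10.8 CPM.

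RNA of macrophages that is free in the suspension can add UMIs to other cells, so the 3 C1q genes (C1qa, C1qb and C1qc), which macrophages make, were followed in the same cells. In control monocytes they stood at 6.12% of their macrophage level, in neutrophils at 1.78%, in endothelial cells at 1.64%, in B cells at 1.68%, in T cells at 0.801%, in NK cells at 0.608% and in hepatocytes at 0.676%. The same shares were 0.176%, 0.101%, 1.32%, 0.154%, 0.0809%, 0.0883% and 0.0646% in the GS-KO library. The median member stood well above these, at 49.1% of its macrophage level in control monocytes, 21.8% in neutrophils, 21.5% in endothelial cells, 11.9% in B cells and 5.80% in T cells. The lowest members came close to the C1q share in several classes: Ctsb in control B cells stood at 2.29%, Lgmn in control neutrophils at 3.02%, Cd68 in control T cells at 0.839% and Ctss in control hepatocytes at 0.723%. A level this near the C1q share is not read as expression by those cells.

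**Figure D2:**
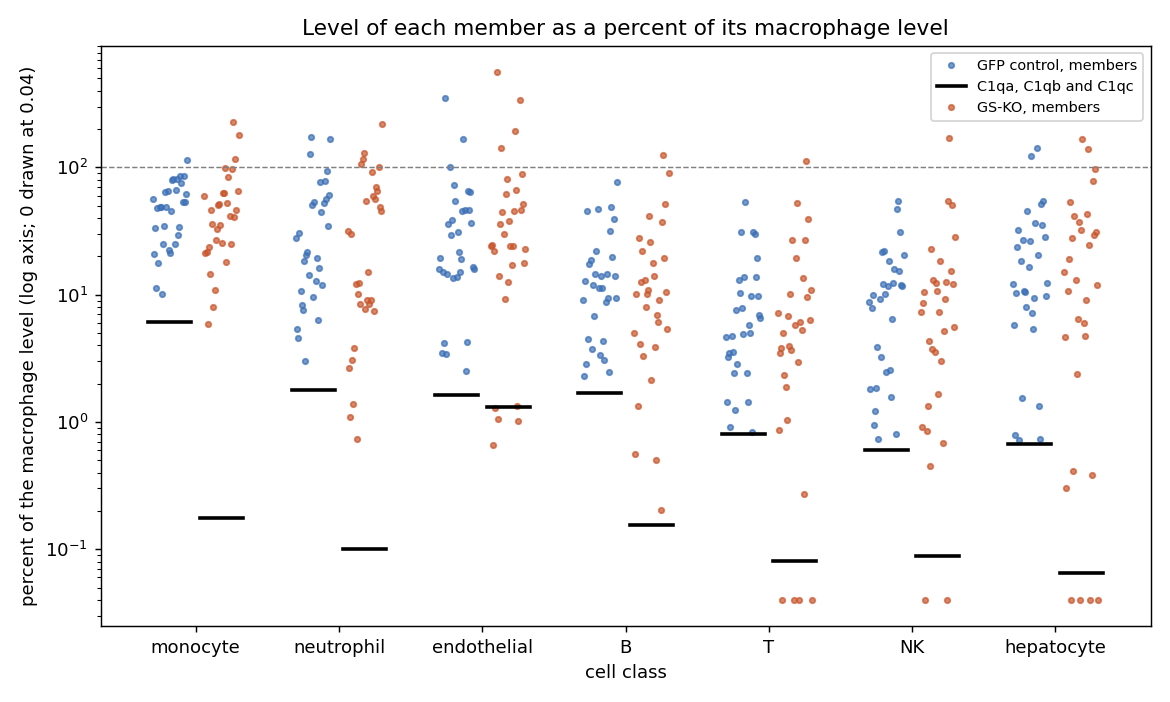
Level of each member in 7 cell classes as a percent of its macrophage level in the same library (log axis), with blue points for the GFP control library and orange points for the GS-KO library. Black bars mark the same percent for C1qa, C1qb and C1qc together; the dashed line is the macrophage level, and most members lie between the bar and the line.

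Within the macrophages, 4 clusters were compared, named by leading genes. The Marco cluster (also Timd4, Folr2 and Clec4f, genes of resident Kupffer cells) held 295 control and 18 GS-KO cells, the Ccr3 cluster (also Cd209f, Gfra2 and Cd163) 302 and 16, the Mmp12 cluster (also Cd207, Clec4f and Trem2) 368 and 20, and the Gpnmb cluster (also Ms4a7, Spp1 and Fabp5) 143 and 16. The summed members were highest in the last 2 of these. In the control library they stood at 42913 CPM in the Gpnmb cluster and 42540 CPM in the Mmp12 cluster, against 31893 CPM in the Marco cluster and 29273 CPM in the Ccr3 cluster. The GS-KO library gave 35491, 37920, 30930 and 26740 CPM for the same clusters.

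In the control library, 7 of 31 members were at least 1.5-fold higher in the Mmp12 than in the Marco cluster (8.43% of all genes). These were Ctsd, Ctsl, Gusb, Gla, Lipa, Npc1 and Atp6v1a. The count of lower members was 0, where 8.82% of all genes were lower. In the Gpnmb cluster 8 of 31 were higher than in the Marco cluster, against 7.92% of all genes, and they were Ctsd, Ctsl, Ctss, Gla, Psap, Mcoln1, Atp6v0c and Atp6v1a. Ctsc was the 1 member lower there, at 684 against 1500 CPM, where 17.6% of all genes were lower. The Ccr3 cluster held 0 higher members (8.72% of all genes) and 1 lower, Gla (5.55%). The median log2 difference of the members from the Marco cluster was 0.41 for the Mmp12 cluster and 0.37 for the Gpnmb cluster, where the medians of all genes were -0.07 and -0.15.

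Ctsd showed the pattern most plainly among the proteases. Its control levels were 2893 CPM in the Marco cluster, 2821 CPM in the Ccr3 cluster, 6192 CPM in the Mmp12 cluster and 6510 CPM in the Gpnmb cluster. The Mmp12 level was 2.14-fold that of the Marco cluster (2.10 to 2.18) and the Gpnmb level 2.25-fold (2.20 to 2.30). Ctsl followed the same order, at 245, 242, 466 and 602 CPM. Alpha-galactosidase A (Gla), which removes galactose from glycosphingolipids, had low levels and the widest fold, at 19.7, 12.4, 57.9 and 62.9 CPM. Lysosomal acid lipase (Lipa), which frees cholesterol and fatty acids from lipoproteins, stood at 782, 786, 1280 and 1124 CPM, and Psap at 3795, 3654, 5551 and 6441 CPM. Ctsc ran the other way, at 1500, 1144, 1157 and 684 CPM, and Lgmn stood at 1869, 1494, 1782 and 1273 CPM.

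The GS-KO library, with 16 to 20 cells a cluster, gave a smaller spread. There 4 of 28 members were at least 1.5-fold higher in the Mmp12 than in the Marco cluster (Ctsd, Gusb, Lipa and Psap), against 14.4% of all genes, and 0 were lower (12.9%). Ctsd was 1.62-fold higher (1.48 to 1.79), at 4053 against 2495 CPM. In the Gpnmb cluster 4 of 28 were higher than in the Marco cluster (Ctsh, Gusb, Npc1 and Atp6v0c; 16.9% of all genes) and 2 lower (Neu1 and Atp6v1b2; 19.8%). Ctsl did not follow the control order: it stood at 481 CPM in the Marco cluster, 371 CPM in the Ccr3 cluster, 507 CPM in the Mmp12 cluster and 482 CPM in the Gpnmb cluster. The difference between the libraries in these spreads was not tested.

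**Figure D3:**
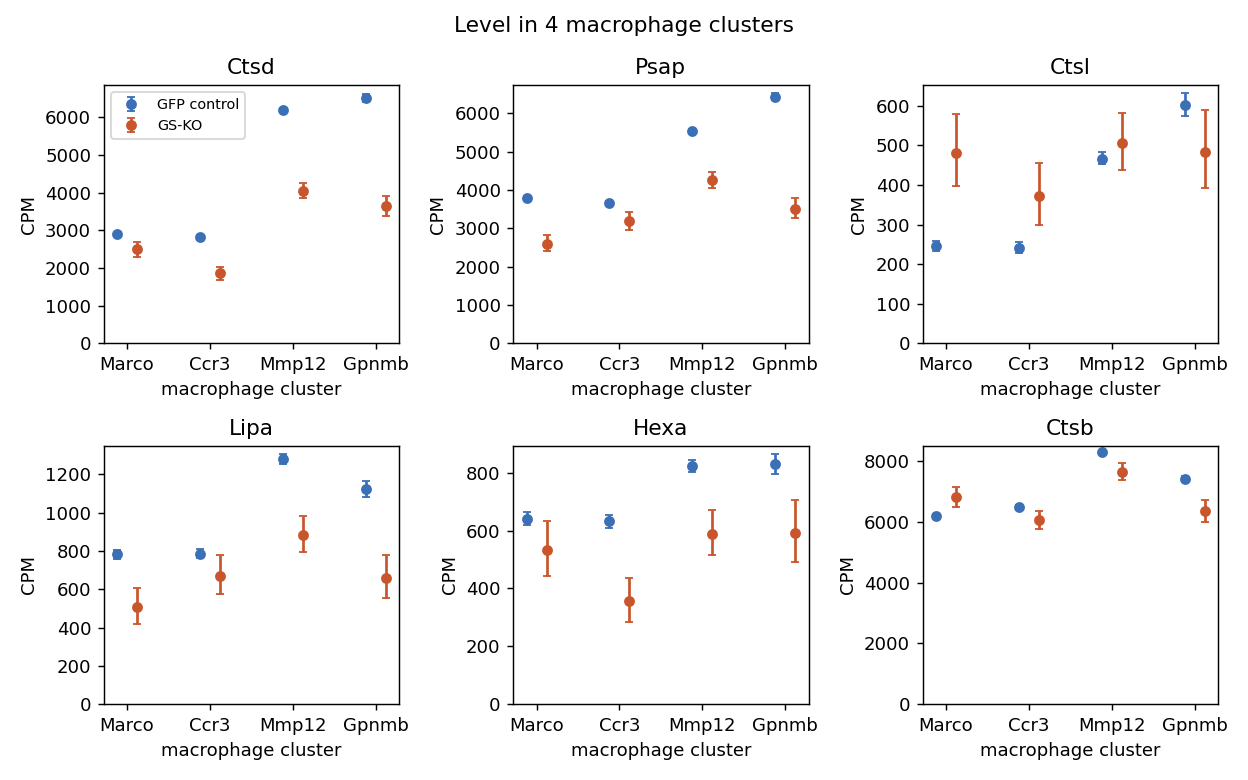
Level of 6 members (CPM, y axes from 0) in the 4 macrophage clusters, with blue points for the GFP control library and orange points for the GS-KO library; bars are exact Poisson 95% intervals of the pooled UMIs. Control Ctsd goes from 2893 CPM in the Marco cluster to 6510 CPM in the Gpnmb cluster, and the GS-KO points for Ctsl lie closer together than the control points.

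In the pooled macrophages the GS-KO level was close to the control level for most of the 31 members. Of them 0 were at least 1.5-fold higher in the GS-KO library, where 9.66% of all genes were. The count of lower members was 1, where 19.2% of all genes were at least 1.5-fold lower. Here and in the other comparisons, the share over all genes takes in each gene with at least 20 UMIs. It was not matched to the members for level, and genes with few UMIs pass a fold by counting error more easily. Counts of genes past a fold, log2 differences and ratios under an alternative add a prior to each side of the comparison. That prior scales with the UMI total of the side and averages 0.5 UMIs over both. The main ratios printed add none. The lower one was Mcoln1, the calcium channel mucolipin 1, at 9.88 CPM in the control library and 4.61 CPM in the GS-KO library, which rested on 5 GS-KO UMIs and had an interval that held 1 (ratio 0.467, 0.15 to 1.11). The median log2 difference was -0.07 for the members and -0.08 for all genes. Cells of the dividing cluster (70 control and 11 GS-KO cells), which could not be named, stayed out of the class. With them 8 of 31 members were at least 1.5-fold lower, where 20.4% of all genes were, and the median was -0.38 for the members and -0.09 for all genes. The C1q genes, made by macrophages, stood at 82.0% of the macrophage level in its 70 control cells and at 3.03% in its 11 GS-KO cells; their part in that count was not tested.

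Among the proteases, Ctsd was the member with the clearest lower level, at 4596 CPM in control and 3125 CPM in GS-KO macrophages (ratio 0.680, 0.657 to 0.704), just short of 1.5-fold. Ctsb stood at 7211 and 6849 CPM (ratio 0.950, 0.928 to 0.972) and Ctss at 3188 and 3552 CPM (ratio 1.11, 1.08 to 1.15). Lgmn was at 1676 and 1751 CPM, Ctsz, a carboxypeptidase, at 1310 and 1096 CPM, Ctsc at 1185 and 1187 CPM, Ctsa, the protective protein of Neu1, at 656 and 648 CPM, Ctsh at 650 and 731 CPM, and Tpp1 at 249 and 191 CPM. Ctsl stood at 374 and 465 CPM (ratio 1.24, 1.13 to 1.36). The proteases lay on both sides of 1, with ratios from 0.680 for Ctsd to 1.24 for Ctsl. With each cell thinned to 1000 UMIs, 90.7% of 1105 control macrophages (88.8 to 92.3) and 87.7% of 65 GS-KO macrophages (77.2 to 94.5) had a Ctsd UMI, against 9.42% and 4.13% of B cells, and the macrophage intervals overlap.

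Of the glycosidases, Hexa, the alpha subunit of the enzyme that degrades GM2 ganglioside, stood at 733 CPM in control and 522 CPM in GS-KO macrophages (ratio 0.713, 0.655 to 0.776). Man2b1 stood at 471 and 559 CPM (ratio 1.19, 1.09 to 1.29) and Gusb, which removes glucuronic acid, at 137 and 151 CPM. Neu1 was at 90.0 and 96.0 CPM and Gla at 38.1 and 36.9 CPM, with intervals that held 1. In the lipid-handling group, Psap stood at 4771 and 3513 CPM (ratio 0.736, 0.713 to 0.761), Lipa at 1016 and 710 CPM (ratio 0.698, 0.649 to 0.750) and Npc1 at 72.5 and 53.5 CPM (ratio 0.738, 0.558 to 0.959). Npc2 was at 1493 and 1391 CPM and Grn at 1167 and 1144 CPM. Each of these 5 had a ratio below 1, and 0 of them reached 1.5-fold.

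Of the membrane proteins other than Mcoln1 and the pump subunits, 0 reached 1.5-fold. Lamp1, the most abundant glycoprotein of the lysosomal membrane, stood at 1420 CPM in control and 1513 CPM in GS-KO macrophages, Laptm5 at 1125 and 931 CPM (ratio 0.828, 0.777 to 0.882), Cd68 at 946 and 946 CPM, Lamp2 at 340 and 343 CPM and Scarb2, the receptor that carries glucocerebrosidase to the lysosome, at 202 and 189 CPM. Of the pump, the membrane subunit Atp6v0c stood at 1073 and 1149 CPM, the cytosolic subunits Atp6v1b2 and Atp6v1a at 242 and 211 CPM and at 193 and 163 CPM, and Atp6v0d1 at 108 and 85.8 CPM (ratio 0.796, 0.64 to 0.980). Tfeb was at 30.1 and 27.7 CPM (ratio 0.920, 0.616 to 1.33). Of the 5 members with TCACGTGA in the searched window, Ctsd stood at a ratio of 0.680 and Mcoln1, on few UMIs, at 0.467. Atp6v1a stood at 0.848, Gla at 0.968 and Ctsa at 0.988. Ctsl, Lamp1 and Lgmn, which held only the shorter form CACGTG, each had a higher level in the GS-KO library. Of all 31 members, 20 had a log2 difference below 0 and 11 above it. A link between motif and ratio was not tested.

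**Figure D4:**
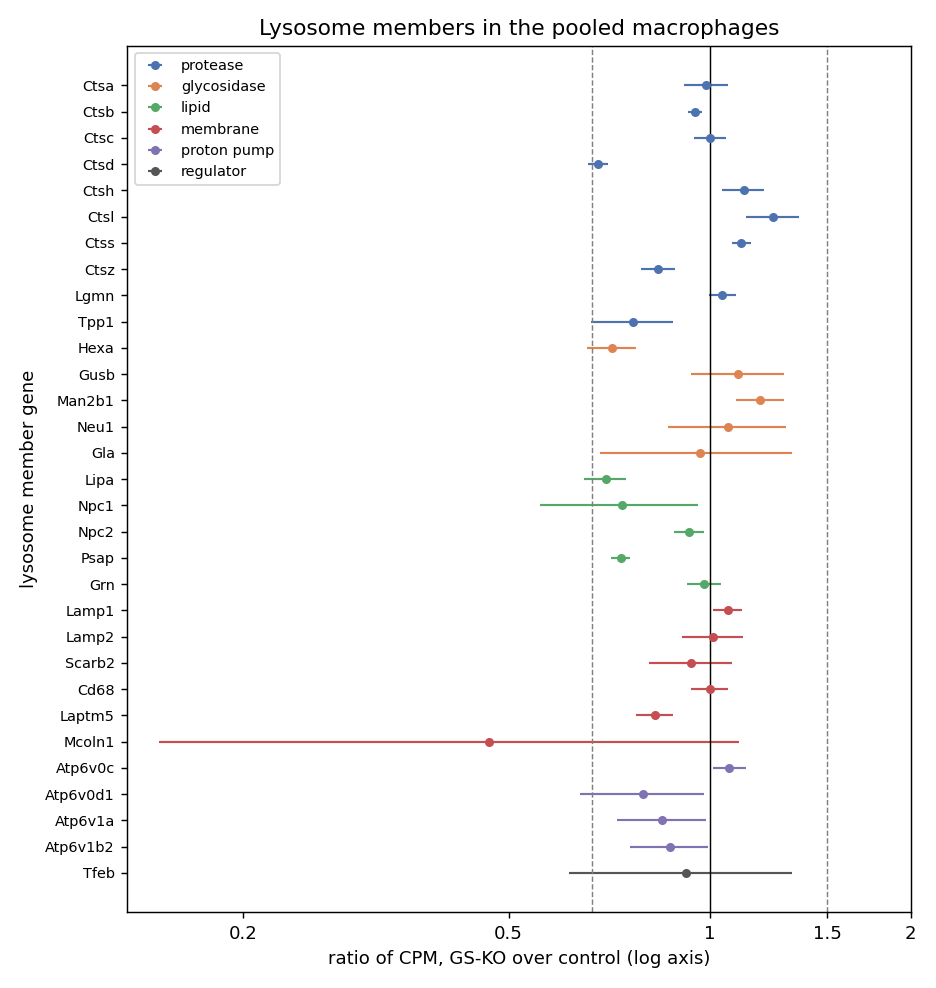
Ratio of CPM in GS-KO over control macrophages for each member (log axis), coloured by role, with 95% intervals of the counts; dashed lines mark 1.5-fold either way. Ctsd, Lipa, Hexa and Psap lie left of 1 and right of the lower dashed line, and Mcoln1 alone lies beyond it with a wide interval.

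Other lysosome genes, 89 fixed by name and role, gave a frame for the members. Of the 87 measured in macrophages, 1 was at least 1.5-fold higher in the GS-KO library, where 9.66% of all genes were. The count of those at least 1.5-fold lower was 9, where 19.2% of all genes were. The median log2 difference of the 87 was -0.09. Lamtor3, a scaffold that holds mTORC1 signalling at the lysosome, stood at 42.1 CPM in the control library and 83.1 CPM in the GS-KO library (ratio 1.97, 1.57 to 2.45). Next by interval came Ifi30, a thiol reductase of antigen processing, at 957 and 1240 CPM and Cst3, the cathepsin inhibitor cystatin C, at 3189 and 3911 CPM, both under 1.5-fold. Lower were Atp6v0d2, a pump subunit of macrophages and osteoclasts, at 90.9 and 40.6 CPM, of whose GS-KO UMIs a single cell held 52.3%; Acp2, an acid phosphatase, at 186 and 112 CPM; and Atp6v1c1, a pump subunit, at 75.1 and 47.1 CPM.

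By macrophage cluster, Ctsd was lower in the GS-KO library in each of the 4, by most in the Gpnmb cluster. It stood at 2893 CPM in control and 2495 CPM in GS-KO cells of the Marco cluster, at 2821 and 1860 CPM in the Ccr3 cluster, at 6192 and 4053 CPM in the Mmp12 cluster and at 6510 and 3642 CPM in the Gpnmb cluster. The ratio was at least 1.5-fold lower in the last 3, at 0.659 (0.6 to 0.723), 0.655 (0.622 to 0.688) and 0.559 (0.519 to 0.602). It stayed past 1.5-fold under all 8 alternatives in the Gpnmb cluster, but under only 4 of 8 in the Ccr3 cluster and 4 of 9 in the Mmp12 cluster. Psap in the Gpnmb cluster stood at 6441 and 3519 CPM (ratio 0.546, 0.506 to 0.589) and was also past 1.5-fold under all 8.

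The Marco cluster held 2 members at least 1.5-fold higher in the GS-KO library, where 14% of all genes were, and 4 lower, where 29% were. Ctsl stood at 245 CPM in control and 481 CPM in GS-KO cells (ratio 1.97, 1.61 to 2.38), and Man2b1 at 416 and 628 CPM (ratio 1.51, 1.27 to 1.78). With cells thinned to 1000 UMIs these ratios were 1.25 and 2.80, and with lysosome genes kept in the clustering that of Man2b1 was 1.44. Lipa stood at 782 and 506 CPM (ratio 0.648, 0.536 to 0.776), past 1.5-fold under 1 of 8 alternatives. The other 3 rested on 1 to 4 GS-KO UMIs: Gla at 19.7 and 12.6 CPM (ratio 0.637, 0.129 to 1.91), Mcoln1 at 7.53 and 4.19 CPM (0.556, 0.0138 to 3.27) and Tfeb at 27.1 and 16.7 CPM (0.618, 0.166 to 1.62). With a mitochondrial limit of 10% the ratio of Gla in this cluster was 1.44.

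In the Ccr3 cluster 2 members were higher (13% of all genes) and 5 lower (27.1%). Hexa, at 632 CPM in control and 355 CPM in GS-KO cells (ratio 0.562, 0.450 to 0.694), was past 1.5-fold under all 8 alternatives. Ctsl, at 242 and 371 CPM (ratio 1.53, 1.23 to 1.90), was not: it had a ratio of 0.633 with cells thinned to 1000 UMIs, with an interval from 0.0743 to 2.36. Tpp1 stood at 252 and 168 CPM (0.665, 0.476 to 0.904) and Atp6v0d1 at 111 and 71.9 CPM (0.645, 0.380 to 1.03). Gla was at 12.4 and 27.9 CPM on 7 GS-KO UMIs, and Mcoln1 at 7.29 and 3.99 CPM on 1.

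The Mmp12 cluster had 0 members higher (12.4% of all genes) and 3 lower (24.3%). Beside Ctsd these were Npc1, at 90.8 CPM in control and 46.1 CPM in GS-KO cells (ratio 0.507, 0.299 to 0.808), and Mcoln1, at 11.2 and 5.12 CPM on 2 GS-KO UMIs. The Gpnmb cluster had 1 higher (18.9% of all genes) and 6 lower (23.8%). The higher one was Ctsc, at 684 and 1097 CPM (ratio 1.60, 1.39 to 1.84), and it was past 1.5-fold under 1 of 8 alternatives and 1.00 with cells thinned to 1000 UMIs. Lower beside Ctsd and Psap were Lipa, at 1124 and 659 CPM (0.587, 0.490 to 0.698), Atp6v1b2, at 202 and 128 CPM (0.632, 0.409 to 0.936; 1.03 with cells thinned), Neu1, at 89.4 and 54.1 CPM (0.605, 0.298 to 1.10), and Mcoln1, at 15.3 and 4.92 CPM on 1 GS-KO UMI. A single GS-KO cell held 26.5% of the Ctsd UMIs and 17.8% of the Psap UMIs of this cluster.

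Outside the macrophages, Ctsl in endothelial cells differed between the libraries. It stood at 1310 CPM in the control library and 2600 CPM in the GS-KO library, a ratio of 1.98 (1.82 to 2.16), and was past 1.5-fold under all 9 alternatives, with ratios from 1.90 to 2.38. No cell held more than 7.45% of its UMIs in the control library or 4.66% in the GS-KO library. With each cell thinned to 1000 UMIs, 61.8% of 102 control cells (51.6 to 71.2) and 74.0% of 77 GS-KO cells (62.8 to 83.4) had a Ctsl UMI. These intervals overlap, and the share among B cells at that depth was 1.5% and 1.65%. Thinned to 2000 UMIs, the endothelial shares were 82.9% of 76 control cells and 83.1% of 65 GS-KO cells. Ctsl was also higher in the 15 GS-KO hepatocytes, at 248 against 120 CPM, but 31.9% of those UMIs came from 1 cell, and the class was too small for the comparison between libraries.

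The other endothelial members were mixed. In all, 2 of 29 measured members were at least 1.5-fold higher in the GS-KO library, where 12% of all genes were, and 6 lower, where 13.5% were. Ctsa stood at 104 and 157 CPM (ratio 1.51, 1.10 to 2.10), but at 0.91 with doublets kept. Of the lower ones, 5 stood low against macrophages, at 2.54% to 4.27% of the macrophage level in the control library (C1q genes 1.64%) and 0.663% to 1.33% in the GS-KO library (C1q genes 1.32%), and are not read as expression by these cells in the GS-KO library: Ctsc at 41.6 and 7.87 CPM, Ctsh at 27.2 and 9.44 CPM, Ctss at 109 and 37.8 CPM, Cd68 at 24.0 and 12.6 CPM and Laptm5 at 48.0 and 9.44 CPM. Each of these 5 leaned on 1 cell, which held from 30% to 73.1% of its UMIs in the control library and from 37.5% to 80.0% in the GS-KO library. Lipa stood at 141 and 89.7 CPM (ratio 0.637, 0.448 to 0.899). With doublets kept, the median log2 difference of the members moved from 0.05 to -0.44.

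In monocytes 7 of 29 members were at least 1.5-fold lower in the GS-KO library, where 16.6% of all genes were, and 0 were higher (11.9%). This class was a single cluster with 8 classical and 9 non-classical monocyte markers. The mix of these kinds in each library was not tested. Ctsd stood at 517 CPM in control and 183 CPM in GS-KO monocytes (ratio 0.354, 0.271 to 0.455) and was past 1.5-fold under all 9 alternatives. Ctsz was at 639 and 395 CPM, Ctsc at 394 and 259 CPM, Ctsh at 309 and 173 CPM, Hexa at 252 and 141 CPM, Gusb at 88.6 and 49.7 CPM and Tpp1 at 61.9 and 20.9 CPM. Psap, Ctss and Ctsb, the 3 members with most UMIs there, stood at 3836 and 3448 CPM, at 1565 and 1635 CPM and at 1497 and 1462 CPM. The C1q genes were at 6.12% of their macrophage level in control monocytes and 0.176% in GS-KO monocytes, and the 8 macrophage-defining genes summed to 2068 and 575 CPM; their part in the lower values was not tested.

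Neutrophils had the lowest median, with a log2 difference of -0.52 over 24 measured members against -0.09 over all genes. There 11 members were at least 1.5-fold lower in the GS-KO library, where 20.5% of all genes were, and 1 was higher, where 13% were. Ctsb stood at 389 CPM in control and 180 CPM in GS-KO neutrophils (ratio 0.463, 0.328 to 0.648), Psap at 935 and 534 CPM (0.572, 0.466 to 0.7) and Hexa at 160 and 64.4 CPM (0.403, 0.224 to 0.704). Ctsz was at 241 and 132 CPM, Lamp1 at 230 and 138 CPM, Npc2 at 191 and 126 CPM, Atp6v1b2 at 148 and 96.6 CPM, Cd68 at 113 and 70.8 CPM, Lipa at 97.4 and 54.7 CPM and Ctsh at 70.1 and 22.5 CPM. Ctss, at 241 and 135 CPM, had a ratio of 1.08 with cells thinned to 1000 UMIs. Gla, the 1 higher member, stood at 19.5 and 48.3 CPM on 5 and 15 UMIs (ratio 2.48, 0.857 to 8.72). Ctsd was lower without reaching 1.5-fold, and the interval of its log2 difference was -0.80 to -0.35. It stood at 30.5% and 30.1% of the macrophage level of its own library. With cells thinned to 1000 UMIs, 70.1% of 97 control neutrophils (60.0 to 79.0) and 55.3% of 103 GS-KO neutrophils (45.2 to 65.1) had a Ctsd UMI. These intervals overlap. Man2b1, higher in control neutrophils than in macrophages, stood at 600 and 596 CPM (ratio 0.993). The macrophage-defining genes summed to 685 CPM in control and 164 CPM in GS-KO neutrophils, and their part in the lower values was not tested.

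B cells had 11 of 29 members at least 1.5-fold lower in the GS-KO library, where 26% of all genes were, and 0 higher (6.33%). Ctsb stood at 165 CPM in control and 38.2 CPM in GS-KO B cells, Psap at 205 and 136 CPM, Ctsd at 132 and 42.0 CPM, Man2b1 at 104 and 61.1 CPM, Ctsa at 59.9 and 32.5 CPM and Lamp2 at 49.6 and 21 CPM. Grn, Lipa, Atp6v1a, Cd68 and Atp6v1b2 lay at 35.6 CPM or less in the control library and at 17.2 CPM or less in the GS-KO library. The macrophage-defining genes summed to 505 and 49.7 CPM in these cells, a wider gap than that of any of the 11 but Cd68, and their part was not tested. Of the 488 control B cells 441 were in 1 cluster and of the 125 GS-KO B cells 109 in another, so the libraries were not compared within 1 B cell cluster.

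T cells had 4 of 24 members at least 1.5-fold lower (19.3% of all genes) and 1 higher (9.29%). The lower ones were Ctsb at 103 and 59.3 CPM, Man2b1 at 48.6 and 20.6 CPM, Ctsz at 31.8 and 20.6 CPM and Atp6v1a at 18.9 and 10.3 CPM. Atp6v0d1, the higher one, stood at 20.8 and 33.5 CPM, and Ctsa, at the edge of 1.5-fold, at 30.8 and 46.4 CPM; both intervals of the ratio held 1. NK cells had 7 of 23 lower (26% of all genes) and 1 higher (11.6%). Ctsb stood at 132 and 63.0 CPM and Man2b1 at 56.7 and 19.7 CPM, with intervals below 1. Gusb, Neu1, Lipa, Grn and Atp6v1b2 rested on 2 to 5 GS-KO UMIs, and Tpp1, the higher one, stood at 23.0 and 43.3 CPM on 11. The macrophage-defining genes summed to 236 CPM in control and 33.5 CPM in GS-KO T cells, and to 186 and 39.4 CPM in NK cells; their part in the lower values was not tested.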

How the data were processed

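Droplet libraries of 2 mice, 1 per group, were analysed from the deposited UMI counts per gene and barcode. The authors made these counts with Cell Ranger on mm10, per the submitters' processing notes, and the matrix headers give software version 3.1.0. Whether the counting used strand was not given in the sources used here; 8 members overlap exons of a gene on the opposite strand in GENCODE M21 (Ctsa, Ctsb, Ctsl, Ctsz, Hexa, Npc1, Grn and Lamp1). The labels call the kit 3PrimeV2 and once name nuclei, which was not settled. The libraries held 5074 control and 1366 GS-KO barcodes and 64770011 and 8805330 UMIs; the lowest barcodes had 501 and 502 UMIs, and 1799 and 694 barcodes were left out for a mitochondrial share over 20%.

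Scrublet (expected rate 5%) marked 9 control and 6 GS-KO barcodes as doublets, 0.381% of those that passed, and these were removed; so few were marked that further doublets may remain. Cells were clustered in scanpy 1.11.5 (2000 variable genes without lysosome genes, 30 components, 15 neighbours, Leiden resolution 1). A cluster was named from at least 3 markers, more than for any other type, with at least 1 of its own among its top 10 genes; this last condition was added after the data were seen. Members and lists were chosen with earlier results of these data known. UMIs were summed by class and library and scaled to CPM, with exact Poisson intervals; ratios carry conditional binomial intervals and shares of cells exact Clopper-Pearson intervals (95%). Libraries were compared in classes of at least 30 cells each and macrophage clusters of at least 10. With 1 mouse a group, a fold of 1.5 between libraries or macrophage clusters and 2 between classes stood in for a test, over genes with at least 20 UMIs. The ratio and interval steps were run on Poisson counts simulated from the pooled macrophage profile. Those counts hold no variation between cells or mice, so the run cannot speak to such variation.

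The genes named with values were the members past 1.5-fold in a class, the 3 members with most UMIs in each role, the 4 largest and smallest macrophage over neutrophil ratios, and of the other lysosome genes the 3 each way whose interval lay farthest from 1. Some members outside that rule were given to show levels by class. Alternatives were clustering resolution 0.5 and 2, lysosome genes kept in clustering, doublets kept, a mitochondrial limit of 10%, means over cells, thinning to 1000 UMIs, CPM without mitochondrial, ribosomal, haemoglobin and hepatocyte genes, minimums of 1 and 50 UMIs, a 2-fold call and leaving out the deepest GS-KO cell. The minimums and the 2-fold call do not bear on the ratio of a member and were not counted for it. At resolution 0.5 the Marco, Ccr3 and Gpnmb clusters had no macrophage cluster that matched them by shared cells. Their counts of alternatives leave that resolution out. Counting the dividing cluster with the macrophages, chosen after seeing the data, bears on the pooled macrophages alone and was not counted among the alternatives of other classes and clusters.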

Additional observations from a re-analysis of the deposited data

Results flagged for a closer look

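Of the members, 3 were at least 1.5-fold higher in the GS-KO library in 1 cell class or cluster and at least 1.5-fold lower in another, with counting intervals away from 1 on both sides. Whether the classes differ was not tested, and each of the higher values fell short of 1.5-fold under an alternative. Ctsa, the protective protein of Neu1, had a GS-KO over control ratio of 1.51 in endothelial cells, 0.91 with doublets kept, and 0.542 in B cells. Ctsc, the activator of granule proteases, had a ratio of 1.60 in the Gpnmb cluster of macrophages, 1.00 with cells thinned to 1000 UMIs, and 0.658 in monocytes, which was not past 1.5-fold under 4 of 9 alternatives. Its ratio of 0.189 in endothelial cells rests on levels of 3.51% and 0.663% of the macrophage level, beside 1.64% and 1.32% for the C1q genes, and a single cell held 80.0% of its UMIs in the GS-KO library. It is not read as expression by those cells. Man2b1, the lysosomal alpha-mannosidase, had a ratio of 1.51 in the Marco cluster of macrophages, 1.44 with lysosome genes kept in the clustering, 0.587 in B cells, 0.424 in T cells and 0.347 in NK cells. The macrophage-defining genes went from 505 to 49.7 CPM in B cells, from 236 to 33.5 CPM in T cells and from 186 to 39.4 CPM in NK cells, and their part was not tested.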

How the results depend on the processing

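No paired analysis was possible because each group has 1 sample. With cells of a class as few as 15, a library of 1 mouse and members down to a few UMIs, intervals cover counting error only. The summed members in control macrophages, 36771 CPM, were 36556 at resolution 0.5, 36552 with lysosome genes in the clustering, 36559 with doublets kept, 36590 with a mitochondrial limit of 10%, 35443 as a mean over cells, 35443 thinned, 43739 without mitochondrial, ribosomal, haemoglobin and hepatocyte genes, and 35849 with the dividing cluster counted as macrophages (an alternative chosen after seeing the data). The GS-KO sum, 33338 CPM, was 32706 at resolution 0.5 and with doublets kept, 32848 with lysosome genes in the clustering, 34169 thinned, 40200 without those gene classes and 26454 with the dividing cluster. The macrophage over monocyte median (control, 1.03) was 0.92 without those gene classes; macrophage over endothelial was 1.45 with doublets kept (control, 2.21) and 1.69 with the dividing cluster (GS-KO, 2.03). The Mmp12 over Marco median (control, 0.41) was 0.35 with lysosome genes in the clustering, 0.34 with doublets kept and 0.34 thinned; in GS-KO cells (0.19) it was 0.38 at resolution 2, 0.27 with lysosome genes in the clustering and 0.37 thinned. Gpnmb over Marco (control, 0.37) was 0.27 with lysosome genes in the clustering.

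The GS-KO over control median in macrophages (-0.07) was -0.026 as a mean over cells, -0.012 thinned and -0.38 with the dividing cluster. With that cluster 8 members were at least 1.5-fold lower, where 20.4% of all genes were. Thinning gave 3 higher, and the share over all genes was not taken for thinned cells. In neutrophils the median (-0.52) was -0.28 as a mean over cells and -0.33 thinned. In endothelial cells (0.05) it turned to -0.44 with doublets kept, as did Ctsa there, to -0.14. Thinning turned Ctss in neutrophils to 0.12, Ctsl in the Ccr3 cluster to -0.66 and Atp6v1b2 in the Gpnmb cluster to 0.043. A mitochondrial limit of 10% turned Gla in the Marco cluster to 0.52, and in NK cells Gusb to 0.049 and Atp6v1b2 to 0.22; doublets kept turned Neu1 to 0.020 and Atp6v1b2 to 0.18 there. These are log2 values, and the cause was not tested. The members' ratios in macrophages kept their direction in 272 of 309 values over the alternatives.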

Other observations

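Cells outside the named classes also carried lysosome genes. A cluster of shallow cells with macrophage markers (259 control and 27 GS-KO cells, median 1582 and 1495 UMIs) had the members at 29352 CPM in the control library and 28216 CPM in the GS-KO library, with the C1q genes at 105% and 110% of the macrophage level. There Ctsl stood at 255 and 491 CPM, and a single cell held 55.6% of the GS-KO UMIs. The dividing cluster had the members at 24524 CPM in its 70 control cells and 2617 CPM in its 11 GS-KO cells. The C1q genes stood there at 82.0% and 3.03% of the macrophage level, so the cells of the 2 libraries were not alike. Their part in the gap was not tested. A small cluster led by Retnla and Prg4 (7 and 2 cells) had them at 15012 and 16664 CPM, and Gusb was its highest member relative to macrophages in the control library, at 143%. A cluster led by platelet genes (2 and 12 cells) had the members at 5956 and 4398 CPM, with 24 and 17 of 31 at 0 UMIs, on a total of 1511 and 14779 UMIs. Shallow cells with hepatocyte genes (241 and 51 cells) had them at 4600 and 3462 CPM.

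In the 1799 control and 694 GS-KO barcodes left out for their mitochondrial share, the members made up 8792 and 7119 CPM of the non-mitochondrial UMIs. The 24 abundant hepatocyte genes stood at 82602 and 73561 CPM in those barcodes, and the 8 macrophage-defining genes at 3824 and 2352 CPM.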
